A study of Mus musculus with 8 samples.

Results

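In whole embryonic lung, 9 genes were followed: Upk1b, Upk3b, Wt1, Msln, Lrrn4, Muc16 and Gpm6a, which are known from mesothelium, and Krtdap and Aldh1b1, which are not established markers of it. They were taken by symbol from the platform annotation. All 9 were measured, by 1 probe set each, among 22180 genes with a single symbol. In 4 mutant embryos, labelled Shh-cre:Ezh2-flox/flox, both copies of Ezh2 were floxed and Cre was driven by Shh, a gene of the lung epithelium. Ezh2 encodes the methyltransferase of the Polycomb complex PRC2, which places the repressive mark on lysine 27 of histone H3. The 4 control embryos are labelled Shh-cre, and the labels name no Ezh2 allele for them. Both groups therefore share the Cre allele, and all embryos were of a mixed C57BL/6 x 129S6 background and were taken at embryonic day 14.5. Mutants 1 and 2, mutants 3 and 4, controls 1 and 2, and controls 3 and 4 were littermates, so each of the 4 litters held a single genotype. RNA of 1 whole lung per array was measured, and a value averages all cells of the organ.

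The mesothelium is the single layer of flat cells that covers the lung and lines the chest cavity. In the embryo it carries the zinc finger factor Wt1, sends growth factors such as FGF9 to the tissue beneath it, and gives rise to mesenchymal cells that enter the lung. Its cells keep epithelial features, with keratins, a glycoprotein coat of mesothelin and mucins, and uroplakins, membrane proteins first known from the urinary bladder. The Shh gene that drives Cre is expressed in the airway epithelium rather than in this covering layer. The comparison asks whether RNA of these genes differs between mutant and control lungs. In such tissue, a changed number of cells of a type and a changed amount of RNA per cell cannot be told apart.

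The log2 expression of Ezh2 was 11.80, 11.80, 11.75 and 11.77 in mutants 1 to 4, against 11.84, 11.93, 11.83 and 11.89 in controls 1 to 4, so the mutants lay slightly below. Array medians ran from 7.05 to 7.12. Xist was low in mutant 3 (6.42) and in controls 1 and 2 (6.74 and 6.37), which are therefore taken as male, and lay above 12.6 in the others. Calls below are at an adjusted p of 0.05 by limma with litter as a random block. Over all genes 0.604% were called higher and 0.248% lower in mutants, 9.87% had an unadjusted p under 0.05, and 52.9% had a positive log2 change. The mutants lay wholly above the controls in 4.48% of genes and wholly below them in 3.6%.

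Upk1b, a tetraspanin that pairs with other uroplakins at the cell surface, was the single gene of the 9 that passed the test, and it rose in mutant lungs. Its log2 expression was 9.07, 9.07, 9.26 and 9.27 in mutants 1 to 4, against 8.78, 8.68, 8.74 and 8.64 in controls 1 to 4. Every mutant lay above every control. Littermates in the mutant group differed by only 0.0019 and 0.0048, but those in the control group by 0.095 and 0.10. The mutant litters averaged 9.07 and 9.27 and the control litters 8.73 and 8.69. The log2 change was 0.46 ± 0.07 (SE, n = 4 per group), a 1.37-fold difference (adjusted p = 0.0102 by limma). The fit used a litter correlation shared by all genes (0.153). The call was lost with littermates averaged, which left 2 values per group (adjusted p = 0.0983 by limma). It was also lost without mutant 4 (adjusted p = 0.0517 by limma) or without control 4 (adjusted p = 0.0515 by limma). The call of Upk1b was known from earlier work on these values when the genes were chosen.

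Wt1, the transcription factor that marks and maintains mesothelial cells, had log2 values of 8.44, 8.51, 8.45 and 8.49 in mutants, against 8.57, 8.47, 8.44 and 8.43 in controls. The groups overlapped throughout, and the highest value was that of control 1. The log2 change was −0.01, with a 95% interval from −0.13 to 0.12, and did not pass (adjusted p = 0.984 by limma).

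Upk3b, a uroplakin of mesothelial cells and one of their most specific markers, had log2 values of 10.29, 10.31, 10.24 and 10.37 in mutants, against 10.28, 10.14, 10.22 and 10.24 in controls. Of the mutants, 3 lay above the highest control, and mutant 3 lay among the controls. The log2 change was 0.08, with a 95% interval from −0.05 to 0.21, and did not pass (adjusted p = 0.748 by limma).

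Msln encodes mesothelin, a surface protein anchored by lipid, and Muc16 encodes the large mucin that binds mesothelin in human cells. Msln had log2 values of 6.56, 6.54, 6.81 and 6.70 in mutants, against 6.43, 6.34, 6.51 and 6.65 in controls. Mutants 3 and 4 lay above all controls, while mutants 1 and 2 lay below control 4. The log2 change of Msln was 0.17, with a 95% interval from −0.02 to 0.36, and did not pass (adjusted p = 0.581 by limma). Muc16 had log2 values of 6.60, 6.61, 6.47 and 6.63 in mutants, against 6.74, 6.55, 6.55 and 6.55 in controls. Control 1 was the highest embryo for Muc16 and mutant 3 the lowest, and the log2 change was −0.02, with a 95% interval from −0.18 to 0.14 (adjusted p = 0.959 by limma). The deposited table holds no detection calls, so these low values are not read as presence or absence of the transcripts.

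Lrrn4 encodes a membrane protein with leucine-rich repeats, and Gpm6a a membrane glycoprotein of the proteolipid family that is also abundant in neurons. Lrrn4 had log2 values of 7.06, 7.20, 6.77 and 7.05 in mutants, against 7.18, 6.95, 7.03 and 6.92 in controls. It spread most among the mutants of all 9 genes (SD 0.18), with mutant 3 low, and its log2 change was 0.0012, with a 95% interval from −0.22 to 0.23 (adjusted p = 0.998 by limma). Gpm6a had log2 values of 9.66, 9.80, 9.64 and 9.75 in mutants, against 9.82, 9.73, 9.89 and 9.83 in controls. Mutants 1 and 3 lay below all controls and the others within their range. The log2 change of Gpm6a was −0.10, with a 95% interval from −0.25 to 0.04, and did not pass (adjusted p = 0.673 by limma).

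Krtdap, which encodes a secreted peptide of differentiating skin cells, had log2 values between 6.43 and 6.46 in mutants, against 6.30 to 6.57 in controls. Its log2 change was 0.01, with a 95% interval from −0.14 to 0.16 (adjusted p = 0.982 by limma). Aldh1b1, a mitochondrial aldehyde dehydrogenase, had log2 values between 6.52 and 6.89 in mutants, against 6.61 to 6.96 in controls, and its log2 change was −0.05, with a 95% interval from −0.27 to 0.18 (adjusted p = 0.923 by limma). Both genes overlapped between the groups over most of their range.

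**Figure D1:**
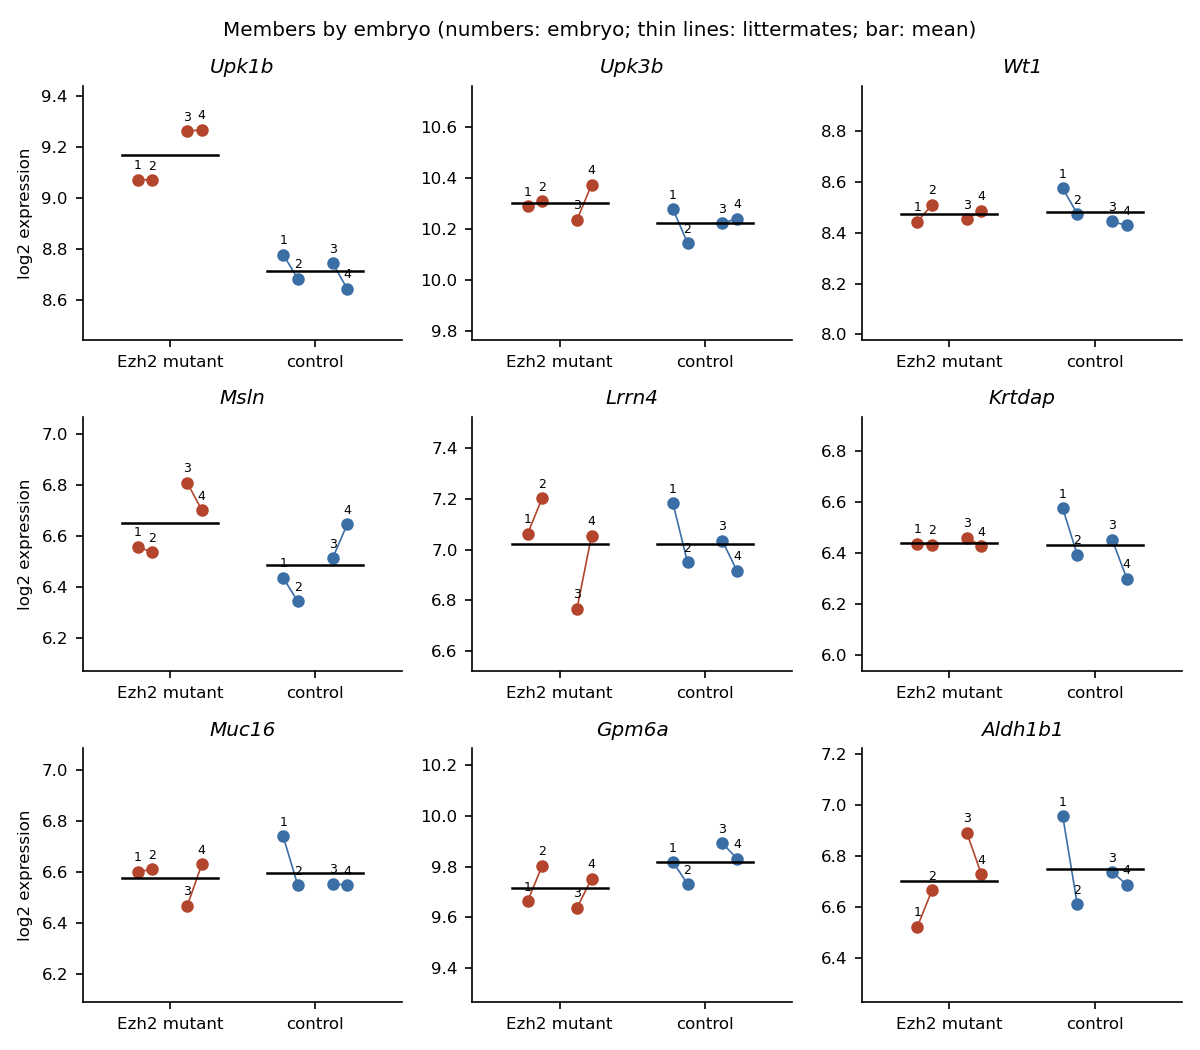
Log2 expression of the 9 genes in each embryo, with Ezh2 mutants on the left and controls on the right of each panel. Numbers give the embryo, thin lines join littermates and bars mark group means. All panels span 1 log2 unit. For Upk1b the 4 mutants, at 9.07 to 9.27, sit above the 4 controls, at 8.64 to 8.78, while the other 8 genes overlap.

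Thus 1 of the 9 genes was called higher, beside 0.604% of all genes, and 0 were called lower, beside 0.248%. Positive log2 changes were found for 5 of the 9, beside 52.9% of all genes, and the median log2 change of the 9 was 0.0012, beside 0.0068 over all genes. Without Upk1b, the 6 other mesothelial genes had a median log2 change of −0.0029. The mean log2 value of the 7 mesothelial genes ran from 8.23 to 8.32 in mutants and from 8.12 to 8.26 in controls, and without Upk1b the mean of the 6 ran from 8.06 to 8.17 in mutants and from 8.03 to 8.17 in controls. Control 1 had the highest control value for 7 of the 9 genes, the exceptions being Msln and Gpm6a.

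The change of Upk1b was set against that of each other gene, by the log2 value of Upk1b minus that of the other gene in the same embryo. The change of Upk1b exceeded that of Upk3b by 0.38, of Wt1 by 0.46, of Msln by 0.29, of Lrrn4 by 0.46, of Muc16 by 0.48 and of Gpm6a by 0.56 on the log2 scale. It exceeded that of Krtdap by 0.45 and that of Aldh1b1 by 0.50. For each of the 8 pairs these differences were higher in all 4 mutants than in all 4 controls. These are descriptions with no test, since Upk1b was known to be called, with no overlap between the groups, when the pairs were formed.

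**Figure D2:**
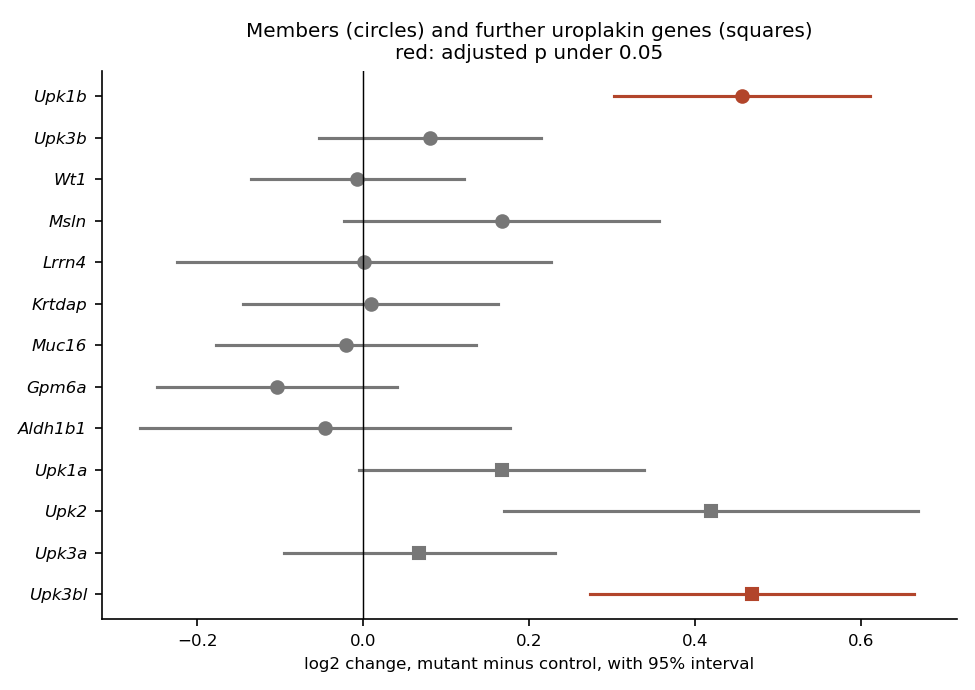
Log2 change, mutant minus control, with its 95% interval from limma (n = 4 per group), for the 9 genes (circles) and the further measured uroplakin genes (squares). Red marks an adjusted p under 0.05: Upk1b at 0.46 and Upk3bl at 0.47. The intervals of the other 8 circles include 0.

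A wider list of mesothelial genes was read beside them. Among the 21 measured, 1 rose, beside 0.604% of all genes, 0 fell, beside 0.248%, and 20 missed the threshold. A positive log2 change was found for 11, beside 52.9% of all genes, and the median was 0.01. The gene that rose was Upk3bl, a uroplakin-like gene described below. The mean log2 value of the list ran from 8.30 to 8.36 in mutants and from 8.16 to 8.34 in controls, so the groups overlapped. Its members with the highest signals were Tcf21, a factor of mesenchyme and mesothelium, the simple keratins Krt8 and Krt18, and the sialomucin Podxl. Their log2 changes were −0.08, 0.01, −0.02 and −0.03, and none passed. A value averages all cells of the lung, and Tcf21 is also on the mesenchymal list, so these changes are not read as those of mesothelium alone.

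Some genes of this wider list did not overlap between the groups but failed the test over all genes, and are named here after their values were seen. Over all genes, mutants lay wholly above the controls in 4.48% and wholly below them in 3.6%. Tbx18, a T-box factor of embryonic mesothelium, had log2 values of 6.98, 6.99, 7.09 and 7.11 in mutants, against 6.74, 6.86, 6.77 and 6.82 in controls, with an adjusted p of 0.135 by limma. Efemp1, a matrix glycoprotein, had a log2 change of 0.36 and Ildr2, a membrane protein, one of 0.62, with adjusted p of 0.284 and 0.158 by limma. Aldh1a1, a retinaldehyde dehydrogenase, had log2 values of 8.88 to 8.93 in mutants, against 9.14 to 10.05 in controls, with a log2 change of −0.57 and an adjusted p of 0.239 by limma. The mutants were tightly grouped for Aldh1a1, and control 3 was the highest embryo. Aldh1a2, the retinoic acid enzyme of the mesothelium itself, had a log2 change of −0.21 and overlapped between the groups.

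Signals that pass between mesothelium, epithelium and mesenchyme were also listed. Among 21 measured genes, 1 rose, beside 0.604% of all genes, 0 fell, beside 0.248%, and 20 missed the threshold. The median log2 change was 0.05. The gene that rose was Tgfb2, a TGF-beta ligand, by 0.33 on the log2 scale (adjusted p = 0.0481 by limma). The call of Tgfb2 held in 8 of 24 alternatives and was lost when any 1 of the 8 embryos was left out. Fgf9, the growth factor of mesothelium and epithelium, is named after its values were seen and had log2 values of 7.73, 7.72, 7.68 and 7.66 in mutants, against 7.75, 7.78, 7.83 and 7.80 in controls. All mutants lay below all controls for Fgf9, by a small log2 change of −0.09 that did not pass (adjusted p = 0.631 by limma). Hedgehog signals are received by the mesothelium, and the receptor gene Ptch1 and the transducer Smo showed log2 differences of −0.11 and −0.02, neither of them called. Hhip, another hedgehog gene of the list, lay wholly below the controls in mutants, with a log2 change of −0.22, and was not called. For the ligands Bmp4 and Tgfb3 the log2 changes were 0.37 and −0.22, and neither gene was called. Tgfb3 also lay wholly below the controls in mutants, while Cyp26b1, with a log2 change of 0.19, lay wholly above and was not called. Over all genes, 3.6% lay wholly below the controls in mutants and 4.48% wholly above. Of 18 measured partners and known targets of Wt1, Wt1 included, 0 passed in either direction (limma), and their median log2 change was 0.01. Those with the highest signals were the factor Snai2, with a log2 change of 0.01, the growth factor Igf2, with 0.07, the coactivator Cited2, with 0.12, and the survival gene Bcl2, with −0.01.

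Uroplakins line the bladder lumen, where tetraspanin members (Upk1a and Upk1b) pair with single-span members (Upk2, Upk3a and relatives). Among the 6 on the array, Upk1b and Upk3bl (2 genes) rose, beside 0.604% of all genes. In this list 0 fell, beside 0.248%, and 4 missed the threshold. All 6 log2 changes were positive, beside 52.9% of all genes, with a median of 0.29, beside 0.0068. These counts and the median include Upk1b, whose call was known when the genes were chosen, so they are not separate from it. Upk3bl had log2 values of 7.50, 7.39, 7.40 and 7.31 in mutants, against 7.09, 6.77, 7.02 and 6.85 in controls. Every mutant exceeded every control. It rose by 0.47 ± 0.09 log2 units (SE, n = 4 per group; adjusted p = 0.036 by limma), and the call held in 11 of 24 alternatives. It was lost without mutant 1, 3 or 4 and without control 2, 3 or 4.

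Upk2, which pairs with Upk1a in the bladder, had log2 values of 7.67, 7.999, 7.90 and 7.78 in mutants, against 7.42, 7.54, 7.56 and 7.15 in controls. The groups did not overlap, but the log2 change of 0.42 ± 0.11 (SE) did not pass (adjusted p = 0.17 by limma). Upk1a and Upk3a were not called, with log2 changes of 0.17 and 0.07, at mean log2 values of 6.39 and 6.53 in mutants and 6.22 and 6.46 in controls.

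Upk3b and Upk3bl are neighbours in the RefSeq gene order, with no annotated gene between them, and they are set side by side: the log2 change was 0.08 for Upk3b, which did not pass, and 0.47 for Upk3bl, which rose. The difference between these changes was not tested. The 250 bases before each RefSeq start (GRCm38.p6, both on the + strand) are shown because the genes lie next to each other and one of them was called, and because PRC2 in mammals is found mostly at promoters rich in CG dinucleotides. Capitals mark each CG. Upk3b (chr5:136038246-136038495) and Upk3bl (chr5:136057017-136057266) read:
Upk3b: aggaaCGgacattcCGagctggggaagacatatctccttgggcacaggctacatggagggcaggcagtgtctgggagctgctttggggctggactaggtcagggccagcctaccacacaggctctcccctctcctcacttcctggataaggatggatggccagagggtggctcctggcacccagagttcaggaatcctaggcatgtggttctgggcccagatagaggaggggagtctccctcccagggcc
Upk3bl: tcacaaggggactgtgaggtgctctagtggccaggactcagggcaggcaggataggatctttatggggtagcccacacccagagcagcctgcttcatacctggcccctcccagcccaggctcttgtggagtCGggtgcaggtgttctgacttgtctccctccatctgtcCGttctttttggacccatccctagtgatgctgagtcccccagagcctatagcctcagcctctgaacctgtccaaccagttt

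Both windows hold 2 CG dinucleotides, counted without overlap and reading the same on both strands, a number that 81.2% of the 32851 RefSeq promoter windows reach or exceed. The median window holds 6. Among the 9 genes, 6 had promoter entries. The windows of Lrrn4, Aldh1b1, Krtdap and Muc16 hold 5, 4, 4 and 0 CG dinucleotides, and the pair of Gpm6a windows 1 and 3, so none of the 7 windows exceeds the median. Upk1b, Wt1 and Msln had no entry. The windows leave out the bases after the start, and whether PRC2 binds any of these genes was not tested.

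Relatives of the other genes were read in the same way. Lrrn1, a paralogue of Lrrn4, had log2 values of 9.81, 9.96, 9.87 and 9.78 in mutants, against 8.59, 8.63, 9.13 and 9.19 in controls. It rose by 0.97 ± 0.13 (SE) on the log2 scale (adjusted p = 0.00547 by limma), a call that held in 21 of 24 alternatives. Lrrn3 missed the threshold, with a log2 change of −0.42 (adjusted p = 0.0718 by limma), although all mutants lay below all controls, and Lrrn2 had 0.08. Of 6 membrane mucins, Muc16 included, 0 passed (limma). Muc1, a mucin of lung epithelium, had log2 values of 8.45, 8.56, 8.54 and 8.67 in mutants, against 8.99, 8.96, 9.51 and 9.79 in controls, with a log2 change of −0.76 and an adjusted p of 0.0716 by limma. Of the 4 mesothelin relatives 0 passed, and neither Gpm6a nor its paralogue Gpm6b did.

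The nearest measured gene on each side of the 9 was taken from the RefSeq order, a choice made after the values were seen. Of these 18 neighbours, 2 rose, beside 0.604% of all genes, and 0 fell, beside 0.248%. Upk3bl, beside Upk3b, is given above and was already counted in the uroplakin and wider mesothelial lists. Fermt1, which encodes the integrin adaptor kindlin-1 of epithelial cells and lies beside Lrrn4, had a mean log2 value of 8.36 ± 0.10 in mutants and 7.72 ± 0.16 in controls (SD, n = 4 each), with a log2 change of 0.63 (adjusted p = 0.00583 by limma), a call that held in 22 of 24 alternatives. The neighbours of Upk1b, B4galt4 and Tex55, were not called, with log2 changes of 0.08 and 0.08. Wt1os, the antisense gene of Wt1, also had 0.08. Mslnl, the mesothelin-like gene beside Msln, had −0.15 and was not called, although all mutants lay below all controls, as in 3.6% of all genes. The log2 changes of the 16 neighbours that did not pass ran from −0.15 to 0.10.

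Markers of other cells that a dissected lung could hold were set beside the 9 genes. Of 13 markers of stratified epithelium and oesophagus, 7 rose, beside 0.604% of all genes, and 0 fell, beside 0.248%. Those that rose, by 0.71 to 2.04 on the log2 scale, were Anxa8, Krt4, Krt15, Krt17, Pax9, Perp and Trp63. This rise was known before the list was drawn up. The other 6 were not called. Their log2 changes were −0.06 for Krt14, −0.01 for Krt13, −0.0055 for Sprr3, 0.07 for Dsg3, 0.18 for Ivl and 0.36 for Sprr1a. The mean log2 value of that list, the 7 genes included, ran from 7.05 to 7.16 in mutants and from 6.39 to 6.49 in controls. Its part in the change of Upk1b and Upk3bl was not tested. Of 15 lung epithelial markers, 1 fell, beside 0.248% of all genes, 0 rose, beside 0.604%, and 14 missed the threshold. The gene that fell, by 0.56 log2 units, was Foxa1, a transcription factor of endoderm. The log2 change was positive for 1 of the 15, Sftpc, a surfactant gene, beside 52.9% of all genes, and the median was −0.12. The list's mean ran from 9.61 to 9.67 in mutants and from 9.70 to 9.87 in controls, so the groups did not overlap. Mutants lay wholly below the controls in 3.6% of all genes. Besides Foxa1, they did so for Epcam, Esrp1, Foxa2, Grhl2 and Shh, which are named after their values were seen and were not called. Their part in the values of the 9 genes was not tested.

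Heart and pericardium carry mesothelium of their own. Of 9 heart markers 0 passed (limma), although all 9 log2 changes were positive, beside 52.9% of all genes, with a median of 0.14. Nkx2-5 and Ryr2, with log2 changes of 0.30 and 0.14, lay wholly above the controls in mutants, as did 4.48% of all genes. The list's mean ran from 7.42 to 7.63 in mutants and from 7.26 to 7.45 in controls. The mean of the heart list overlapped between the groups. Its part in the change of Upk1b was not tested. Among 8 kidney and gonad markers, which cover other tissues that express Wt1, 1 rose, beside 0.604% of all genes, and 0 fell, beside 0.248%. Pax2 rose by 0.70 log2 units and the other 7 of 8 were not called, with a median log2 change of 0.06 over the list. Of 8 neural markers 1 fell, beside 0.248% of all genes, and 0 rose, beside 0.604%. Ret, a receptor of neural crest derivatives, fell by 0.43 log2 units and the other 7 were not called. The log2 change was positive for 5 of the 8, beside 52.9% of all genes, with a median of 0.0085. Stmn2 and Snap25, with log2 changes of 0.25 and 0.19, lay wholly above the controls in mutants, as did 4.48% of all genes. Neither was called. The call of Ret was lost without control 4. Of 11 mesenchymal, 8 endothelial, 9 skeletal muscle and 6 liver markers, 0 passed (limma), with median log2 changes of 0.07, 0.06, 0.03 and 0.06. Among them, Col1a1, Pdgfra, Cdh5 and Tek lay wholly above the controls in mutants, with log2 changes of 0.25, 0.21, 0.10 and 0.19. Meox2, with −0.17, lay wholly below, as did 3.6% of all genes.

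**Figure D3:**
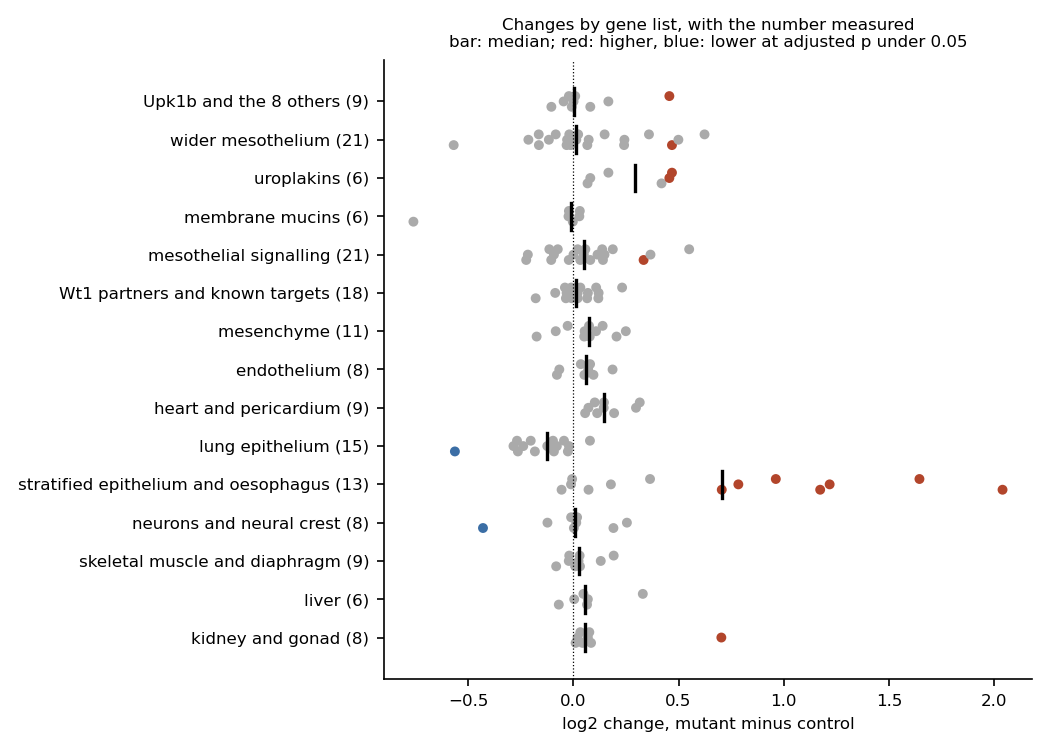
Log2 change, mutant minus control, of each measured gene in 15 lists, with the number measured in brackets. Bars mark medians, red points genes called higher and blue points genes called lower at an adjusted p under 0.05 by limma. The 9 genes and the wider mesothelial list centre on 0 with 1 red point each, while 7 of 13 stratified epithelial markers are red.

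The genes whose log2 values followed those of Upk1b most closely over the 8 arrays, among 17269 ranked, were Aff1, a factor of transcript elongation, Sh3rf2, a ubiquitin ligase, Sesn2, a sestrin of the stress response, Olfm5, an olfactomedin family gene, and Gclc, an enzyme of glutathione synthesis. Their Pearson correlations with Upk1b ran from 0.980 to 0.986 and their Spearman correlations from 0.905 to 0.976, over 8 arrays that share 4 litters. They were picked as the highest, so no test of the correlations is given. Upk1b separates the groups, so the group differences and the order of embryos given here for these genes follow from that choice. Sesn2 had log2 values of 7.83, 7.72, 7.99 and 8.03 in mutants, against 7.48, 7.32, 7.46 and 7.42 in controls, with mutants 3 and 4 above mutants 1 and 2 as for Upk1b. Sesn2, Olfm5 and Sh3rf2 rose by 0.47, 0.50 and 0.32 on the log2 scale. These calls are not separate from that of Upk1b, and they held in 15, 16 and 8 of 24 alternatives. That of Sesn2 was lost without mutant 4, control 2 or control 4, that of Olfm5 without mutant 4 or control 4, and that of Sh3rf2 without any single embryo except mutant 2 and control 3. Aff1 and Gclc, with log2 changes of 0.20 and 0.08, did not overlap between the groups but did not pass.

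The mean of the 9 genes, each centred on its own mean, was followed most closely by Scoc, Wscd1, Neil2, Dnaic1 and Fam83e, with Pearson correlations from 0.934 to 0.976 over the same 8 arrays. Control 1 and control 2 were the extremes of that mean among controls, at 0.06 and −0.10 log2 units from the mean of all embryos, against −0.01 to 0.07 in mutants. None of these 5 genes passed (limma), and in each the groups overlapped. No gene is on both of these lists of 5.

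**Figure D4:**
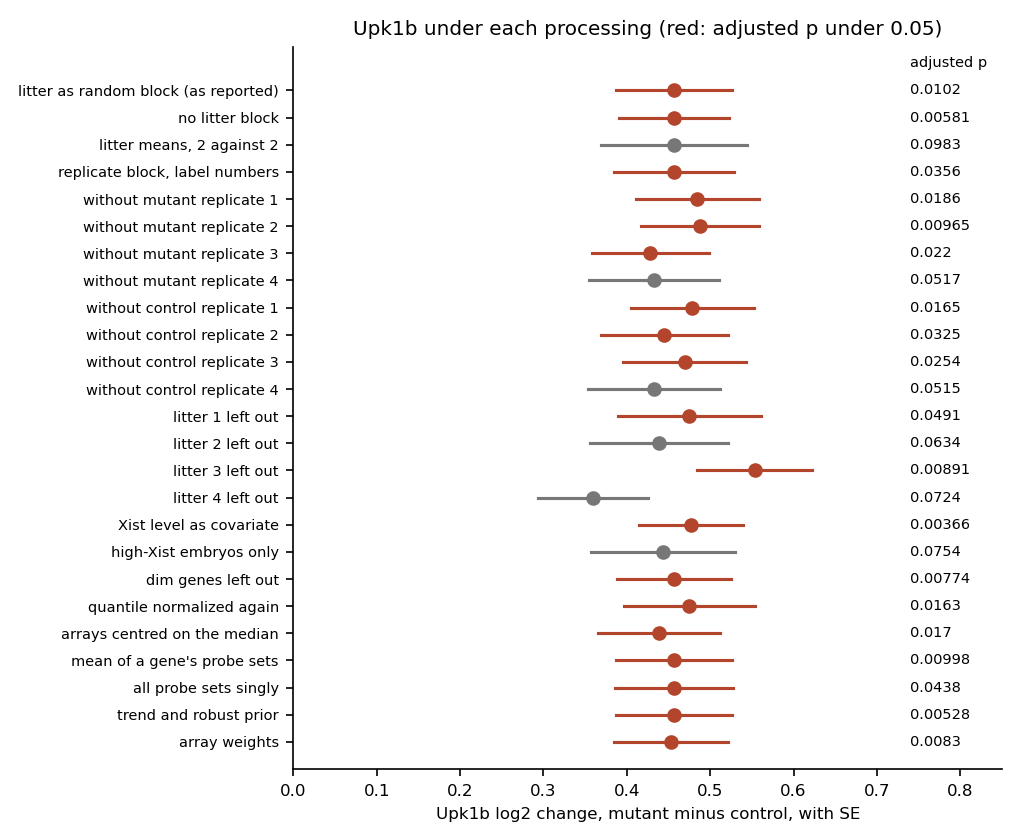
Log2 change of Upk1b, mutant minus control, with its SE and adjusted p from limma under each processing. Red marks an adjusted p under 0.05. The change stays between 0.36 and 0.55, and the adjusted p lies between 0.00366 and 0.0983.

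The change of Upk1b was positive in 24 of 24 alternatives, between 0.36 and 0.55 on the log2 scale, and passed in 18. Averaging littermates left 2 values against 2 and gave an adjusted p of 0.0983 (limma). Among the 3 mutants and 2 controls with high Xist, the log2 change was 0.44 with an adjusted p of 0.0754 (limma), and with Xist as a covariate it was 0.48 with an adjusted p of 0.00366 (limma). Leaving out the litter of mutants 3 and 4 gave the smallest change, 0.36, and leaving out that of mutants 1 and 2 the largest, 0.55. None of the other 8 genes passed in any alternative by limma. Upk3b and Msln had positive changes and Gpm6a negative ones in every alternative that tested them, while Wt1, Lrrn4, Muc16, Krtdap and Aldh1b1 changed sign in 3 to 10.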

How the data were processed

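Whole lungs of 4 mutant and 4 control embryos were measured on 1 Affymetrix array each. The authors deposited log2 values per probe set, made by RMA with the package oligo, per the submitters' processing notes, which also name limma. For versions, options and genome build, the sources used here give nothing. RMA sets all arrays to a like distribution, so changes are relative to the rest of the array, and summarizing probes compresses changes of dim genes. The number of arrays limits the precision.

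Of 41345 probe sets, 23521 had 1 gene symbol, 1814 several and 16010 none. Genes with several probe sets were represented by the one with the highest mean, giving 22180 genes. Groups were compared with limma 3.58.1 (R 4.3.3), with litter as a random block (correlation 0.153) and Benjamini-Hochberg adjustment over all genes at 0.05. Litter and genotype cannot be told apart, since each litter held a single genotype. Littermates share a dam, so p-values measure the spread between these embryos. No arrays held identical values. Alternatives numbered 24.

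The members, lists and tests were chosen with earlier results of these data known. For that reason, and because it takes littermates as independent, a planned permutation test of Upk1b against each other gene is not reported. Named genes are all 9 members, every list gene that passed, up to 4 further genes per list with the highest signal, and the 5 genes most correlated with Upk1b or with the mean of the 9. Genes named outside this rule, among them relatives, neighbours and genes without overlap between groups, were chosen after their values were seen. Replicate numbers shared by the labels did not pair the samples. Promoter windows are from RefSeq (GRCm38.p6).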

Additional observations from a re-analysis of the deposited data

Results flagged for a closer look

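Each group of 4 embryos was searched for a single value far from the other 3, by Dixon's test. Of 110 groups of 4 tested, 7 were found, against 5.5 expected by chance, and 1 of these was among the 18 groups of the 9 genes. Muc16 was highest in control 1, at a log2 value of 6.74, with the other controls at 6.55 to 6.55. Krt15 was lowest in mutant 3, at 8.45, with the other mutants at 8.81 to 8.85. Anxa8 was lowest in mutant 4, at 7.66, with the other mutants at 8.37 to 8.45. Lrrn3 was lowest in control 1, at 8.97, with the other controls at 9.31 to 9.33. Tcf21 was highest in control 3, at 11.22, with the next control at 11.00. The mean of the stratified epithelial list was lowest in mutant 4, at 7.05, with the other mutants at 7.15 to 7.16. The mean of the mesothelin family was highest in mutant 3, at 6.44, with the other mutants at 6.34 to 6.35.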

How the results depend on the processing

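The call of Upk1b was lost with littermates averaged (log2 change 0.46, adjusted p = 0.0983 by limma), without the litter of controls 3 and 4 (0.44, 0.0634), without that of mutants 3 and 4 (0.36, 0.0724) and among high-Xist embryos (0.44, 0.0754), and 0 of the 9 genes were then called. Averaging left 2 values per group, and fewer embryos entered the other 3 fits. Leaving out single embryos gave 0.43 to 0.49, with 0 or 1 gene called. Over all genes, 65 were called higher with littermates averaged, 75 without the litter of mutants 3 and 4, 79 among high-Xist embryos and 361 with Xist as a covariate. The number called lower was 95 with no litter block, 33 with littermates averaged, 90 without the litter of controls 1 and 2, 23 without that of mutants 3 and 4, 313 with Xist as a covariate and 34 over all probe sets. The cause was not tested. Without mutant 4, 73 were called higher and 28 lower, and without control 4, 89 and 32. Leaving out single embryos gave between 73 and 157 called higher and between 28 and 75 lower. Without the litter of mutants 1 and 2, the change of Upk1b exceeded that of Wt1 by 0.56, Lrrn4 by 0.66, Krtdap by 0.54 and Muc16 by 0.60. Without that of mutants 3 and 4 these excesses were 0.36, 0.25, 0.36 and 0.35, and among high-Xist embryos that over Msln was 0.42. With the label numbers as a replicate block, the log2 change of Upk1b was 0.46 (adjusted p = 0.0356 by limma), with 140 genes called higher, 55 lower, 1 of the 9 called and a median of 0.0012. Same-numbered embryos did not deviate together (correlations −0.23, −0.05, −0.27 and 0.03), so the numbers show no pairing. For littermates the correlations were 0.09, −0.07, 0.04 and −0.22. Centring on their shared group mean pulls these below 0, so they cannot be read against 0 as those of same-numbered embryos are. The litter correlation by limma was 0.153, and litter was a block because the design names it. Msln, Krtdap, Muc16 and Aldh1b1 had no value once dim genes were left out.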
